A study of Homo sapiens with 6 samples.

Results

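The keratins of stratified and basal epithelium examined here are KRT4, KRT5, KRT6A, KRT10, KRT13, KRT14, KRT15, KRT16, KRT75 and KRT80, 10 genes of the 22496 symbols measured. They were picked by name, with their difference between the groups below already known, so that difference is described and not tested. The cells are LoVo, an established human line from a colon adenocarcinoma. Poly-A RNA was sequenced from 3 libraries of the genotype non-target (NT) and 3 of the genotype SHARPIN knockout (KO), to ask how gene expression changes when SHARPIN, which belongs to the complex that builds linear ubiquitin chains (LUBAC), is removed. Both groups are the same line with no other allele or agent named in the labels, and the labels do not say whether the knockout is 1 clone or whether replicates came from separate cultures, so the spread between libraries may be technical. All 10 keratins were detected in all 6 libraries and stood higher in every KO library than in any NT library.

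Keratins are the intermediate filament proteins of epithelial cells. A filament is built from pairs of 1 acidic type I and 1 basic type II chain, and the pair in use marks the epithelium: KRT5 with KRT14 or KRT15 in the basal layer of stratified epithelia, KRT4 with KRT13 in the upper layers of moist mucosa such as the oesophagus, KRT6A with KRT16 in wounded or fast-turning epidermis, and KRT10 with KRT1 in keratinising upper epidermis. The colon is lined by a simple epithelium, whose filaments are made mainly of KRT8, KRT18, KRT19 and KRT20.

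The 6 libraries were alike in estimated depth, at 21100000 to 22500000 fragments, and listed 19068 to 20158 genes each. Values are FPKM, a fragment count divided by transcript length in kilobases and by library size, so levels of different genes are compared per length. SHARPIN transcript stood at 11.9, 13.9 and 12.9 FPKM in NT replicates 1, 2 and 3 and at 7.55, 11.9 and 18.1 FPKM in KO replicates 1, 2 and 3, so the groups overlapped (limma, adjusted p = 0.827) and the transcript level does not check the labels, since a small deletion need not lower it. NT replicate 1 stood apart from its group in several of the keratins below. It was also the library in which the fibroblast collagens COL1A1 and COL1A2 were found, at 6.60 and 6.12 FPKM, against 0.29 FPKM or less in any other library; of 15 markers of fibroblasts, endothelium and leukocytes, 12 were below 1 FPKM in all 6 libraries, and the summed level was 8.53 to 19.6 FPKM in NT and 0.317 to 0.980 FPKM in KO. The fibroblast proteoglycan gene LUM was at 5.03, 7.52 and 7.45 FPKM in NT and at 0.385, 0.199 and 0.151 FPKM in KO, and it fell (log2 difference -2.61, limma, adjusted p = 5.83e-05). LUM entered the test only through NT libraries, so its call depends on the filter. Within NT it was lowest in replicate 1, unlike COL1A1 and COL1A2. The part of these transcripts in the keratin values was not tested. In bulk RNA, more cells that make a transcript and more transcript per cell cannot be told apart.

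The 5 type II members (KRT80, KRT75, KRT6A, KRT5 and KRT4, in this order) lie on the minus strand of chromosome 12, between 52562780 and 53207900 (GRCh37, the same assembly as hg19, which the authors aligned to). The 5 type I members (KRT10, KRT13, KRT15, KRT14 and KRT16) lie on the minus strand of chromosome 17, between 38974369 and 39772151. The annotated transcripts have 9 exons in each type II member and 8 in each type I member. Of the 10 genes, 4 (KRT4, KRT5, KRT10 and KRT75) matched an entry in the table of RefSeq promoters (build GRCh38.p14). The sequences of 250 bases before each start were found once on the gene's own chromosome and strand in GRCh37, the only ones searched. They are printed 5′ to 3′ on the gene's strand, up to the base before the gene start, because all belong to genes that stood higher in KO and they share 1 feature near the start. Capitals mark ATAA, the core of a TATA-like element. The KRT5 stretch runs from 45 to 16 bases before the RefSeq start, which lies at 52914178; the annotated span of KRT5 reaches further, to 52914314, through another transcript, so the stretch lies inside that span. For the other 3 genes the RefSeq start and the annotated 5′ end are the same base.
KRT4, chr12:53207901-53208150, minus strand: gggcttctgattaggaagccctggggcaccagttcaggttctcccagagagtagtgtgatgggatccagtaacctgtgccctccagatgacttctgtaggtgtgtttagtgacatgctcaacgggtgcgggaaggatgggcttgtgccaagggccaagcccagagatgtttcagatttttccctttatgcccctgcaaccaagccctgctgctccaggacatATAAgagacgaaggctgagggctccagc
KRT5, chr12:52914194-52914223, minus strand: cccagttctggaagggATAAaaagggggca
KRT75, chr12:52828156-52828405, minus strand: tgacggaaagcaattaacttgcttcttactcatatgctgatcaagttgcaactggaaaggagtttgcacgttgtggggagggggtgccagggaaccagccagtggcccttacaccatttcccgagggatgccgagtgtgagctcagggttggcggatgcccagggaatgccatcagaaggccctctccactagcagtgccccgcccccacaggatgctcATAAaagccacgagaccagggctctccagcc
KRT10, chr17:38978867-38979116, minus strand: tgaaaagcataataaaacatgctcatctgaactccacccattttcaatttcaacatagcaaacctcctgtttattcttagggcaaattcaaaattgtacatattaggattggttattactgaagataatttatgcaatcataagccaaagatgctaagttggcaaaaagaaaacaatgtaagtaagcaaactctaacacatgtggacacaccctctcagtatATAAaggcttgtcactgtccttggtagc

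The letters ATAA on the sense strand, starting 40 to 20 bases before the gene start, were in 4 of these 4 promoters and in 8.42% of the 35116 promoters of the table; this motif and window were chosen after the sequences had been seen. The other motifs were searched on both strands of 300 bases, 250 before and 50 after the start. The AP-1 motif TGANTCA was in 0 of the 4 (7.71% of all promoters), and the ETS core GGAAGT in 0 (22.8%). The AP-2 motif GCCNNNGGC was in 2, KRT4 and KRT75 (23.2%), the box CACCC in 4 (59.9%), and GCATGC, the symmetrical core of a p63 site, in 1, KRT5, at 95 bases before its RefSeq start (7.22%). A match is a stretch of letters and shows no binding.

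KRT4 and KRT13, the mucosal pair, differed from each other in how far apart the groups stood. KRT4 stood at 59.6, 23.6 and 24.0 FPKM in NT replicates 1, 2 and 3 and at 319, 272 and 328 FPKM in KO replicates 1, 2 and 3. The lowest KO library was 4.57 times the highest NT library, NT replicate 1. The means were 35.7 ± 20.7 and 306 ± 29.8 FPKM (SD, n = 3), a ratio of 8.58, or a difference of 3.20 ± 0.32 (SE from limma) on the log2(FPKM + 1) scale. KRT13 stood at 18.62, 4.84 and 4.8 FPKM in NT and at 35.8, 18.76 and 24.8 FPKM in KO. NT replicate 1 and KO replicate 2 nearly met, with a ratio of 1.01, so the groups separated by less than the spread within either of them. The KRT13 means were 9.42 ± 7.97 and 26.5 ± 8.63 FPKM, a ratio of 2.81, and the difference of 1.61 ± 0.44 on the log2(FPKM + 1) scale had the largest SE of the 10 keratins. Against NT replicates 2 and 3 alone, the KO mean of KRT13 was 5.49 times higher, and against NT replicate 1 it was 1.42 times higher.

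The basal keratins were KRT5, KRT14 and KRT15. KRT5, the type II chain of basal cells, stood at 15.1, 11.3 and 10.8 FPKM in NT and at 114, 78.7 and 93.3 FPKM in KO. The 3 NT libraries lay close together, and the lowest KO library was 5.20 times the highest of them. Means of 12.4 ± 2.37 and 95.2 ± 17.5 FPKM (SD, n = 3) gave a ratio of 7.66 and a difference of 2.84 ± 0.20 on the log2(FPKM + 1) scale. KRT14, its usual type I partner, was the least abundant of the 10 in both groups. It stood at 0.792, 0.517 and 0.430 FPKM in NT and at 4.72, 2.22 and 3.85 FPKM in KO, without overlap. At the estimated depth the NT values correspond to about 29, 18 and 16 fragments. The ratio of means was 6.21, while the difference on the log2(FPKM + 1) scale was 1.51 ± 0.22, because adding 1 compresses low values; with 0.1 added it was 2.42. KRT15, the other basal type I chain, stood at 1.64, 0.963 and 1.03 FPKM in NT and at 5.54, 4.15 and 5.95 FPKM in KO, a ratio of means of 4.30 and a difference of 1.49 ± 0.20. The lowest KO library was 2.52 times the highest NT library.

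KRT6A and KRT16, the pair of wounded epithelium, also stood higher in KO. KRT6A stood at 3.85, 5.07 and 4.42 FPKM in NT and at 32.2, 45.9 and 51.5 FPKM in KO. It had the widest gap of the 10, with the lowest KO library at 6.34 times the highest NT library, and it was one of 2 members, with KRT10, that were lowest rather than highest in NT replicate 1 within its group. Means were 4.45 ± 0.611 and 43.2 ± 9.92 FPKM (SD, n = 3), a ratio of 9.71 and a difference of 3.0 ± 0.20 on the log2(FPKM + 1) scale. KRT16 stood at 2.40, 1.26 and 0.832 FPKM in NT and at 3.97, 3.74 and 5.05 FPKM in KO. NT replicate 1 was again the nearest to KO, at a ratio of 1.56 to the lowest KO library. The means of 1.498 ± 0.812 and 4.25 ± 0.696 FPKM gave a ratio of 2.84 and a difference of 1.11 ± 0.24. Close copies limit what can be said of single genes: of the windows of 100 bases in the KRT6A transcript, 18.2% were also found in transcripts of another gene, mainly KRT6C and KRT6B, against 7.12% for KRT16, 6.05% for KRT14, 1.64% for KRT5 and 0 for the other 6. How the authors assigned fragments shared between genes is not stated in the sources at hand.

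KRT10, KRT75 and KRT80 are outside the pairs of members set out above. KRT10, the type I chain of the upper epidermis, stood at 4.44, 6.11 and 6.25 FPKM in NT and at 10.5, 8.43 and 13.3 FPKM in KO, a ratio of means of 1.92 and a difference of 0.82 ± 0.21 on the log2(FPKM + 1) scale. Its type II partner KRT1 was at 0.046 FPKM or less in NT and at 0.129 FPKM or less in KO, so KRT10 was present almost without it. KRT75, a type II chain of the companion layer of the hair follicle, stood at 1.06, 0.484 and 0.569 FPKM in NT and at 5.58, 3.10 and 2.94 FPKM in KO. Its ratio of means was 5.51 and its difference 1.49 ± 0.23, or 2.31 with 0.1 added in place of 1. KRT80, a type II chain of many epithelia, was the most abundant of the 10 in NT, at 59.3, 49.1 and 45.5 FPKM, and stood at 92.9, 70.7 and 64.9 FPKM in KO. It had the smallest ratio of means, 1.48, and the smallest difference, 0.55 ± 0.19, and its lowest KO library was 1.09 times its highest NT library.

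**Figure D1:**
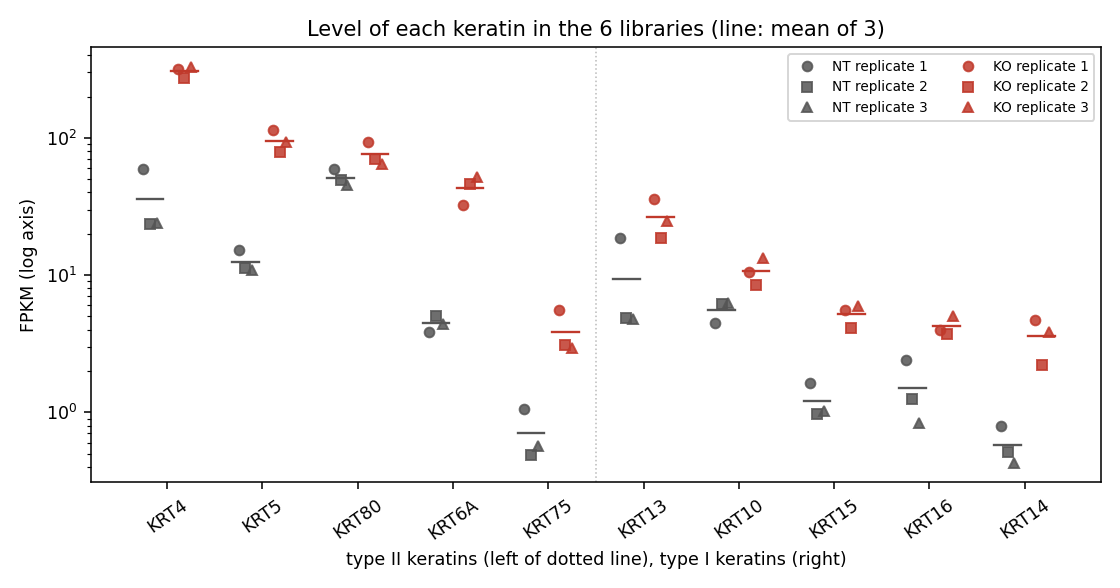
FPKM of each of the 10 keratins in each library on a log axis, with NT in grey, KO in red, one symbol per replicate number and a line at the mean of 3. All KO points of a keratin lie above all its NT points, by a wide gap for KRT4, KRT5 and KRT6A and by ratios of only 1.01 and 1.09 for KRT13 and KRT80.

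The groups did not overlap in 10 of 10 keratins, with KO higher. Among the 13092 genes tested, 16.5% had groups that did not overlap with KO higher; nothing is read from this, as the members were chosen on the same contrast. In 6 of the 10 the lowest KO library was more than 2 times the highest NT library. The median difference over the 10 was 1.5 on the log2(FPKM + 1) scale, over the 5 type II members 2.84 and over the 5 type I members 1.49, beside 0.02 over all genes tested. Differences ran from 0.55 to 3.20, and among all genes tested the 95th percentile was 0.82 and the 99th 1.61. The medians of the 5 type II and 5 type I members were 2.93 and 1.74 with a pseudocount of 0.1, so the order of the types was the same on that scale. Within NT, replicate 1 was the highest library for 8 of the 10, and it was the highest of NT for 51.9% of all genes tested. Within KO, replicate 2 was the lowest library for 7 of the 10, against 22.1% of all genes tested.

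**Figure D2:**
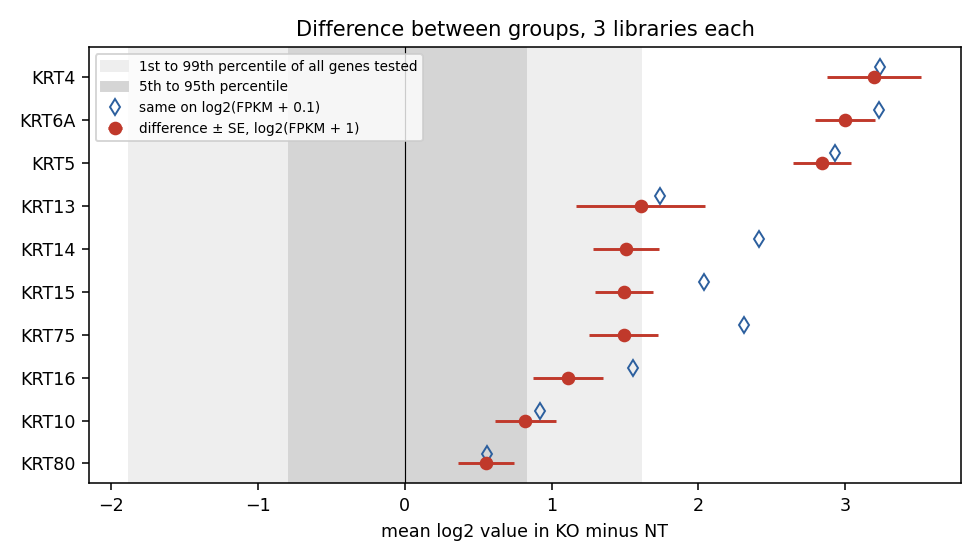
Mean log2(FPKM + 1) in KO minus that in NT for each keratin, with the SE from limma (red, 3 libraries a group), and the same on log2(FPKM + 0.1) in blue diamonds; grey bands span the 1st to 99th and 5th to 95th percentiles of the 13092 genes tested. KRT4, KRT6A and KRT5 lie near 3, and KRT80 and KRT10 lie within the darker band or at its edge.

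The order of abundance changed between the groups. In NT the means fell from KRT80 (51.3 FPKM) through KRT4, KRT5, KRT13, KRT10, KRT6A, KRT16, KRT15 and KRT75 to KRT14 (0.580 FPKM). In NT, KRT80 and KRT4 overlapped, as did KRT5 and KRT13, KRT13 and KRT10, KRT10 and KRT6A, KRT16 and KRT15, KRT15 and KRT75, and KRT75 and KRT14. In KO the order was KRT4 (306 FPKM), KRT5 (95.2 FPKM), KRT80 (76.1 FPKM), KRT6A, KRT13, KRT10, KRT15, KRT16, KRT75 and KRT14 (3.60 FPKM). There, KRT4 stood clear of all others, while KRT5 overlapped KRT80, KRT6A overlapped KRT13, and KRT15, KRT16, KRT75 and KRT14 overlapped their neighbours in the order.

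The type II chains outweighed their type I partners, and for 3 of the 4 pairs by more in KO. KRT4 stood at 3.20, 4.87 and 4.99 times KRT13 in NT and at 8.92, 14.5 and 13.2 times in KO. KRT6A stood at 1.60, 4.03 and 5.31 times KRT16 in NT and at 8.10, 12.2 and 10.2 times in KO. KRT5 stood at 9.22, 11.7 and 10.6 times KRT15 in NT and at 20.5, 19 and 15.7 times in KO. For these pairs the ratios of the groups did not overlap. KRT5 stood at 19.1, 21.8 and 25.2 times KRT14 in NT and at 24.0, 35.4 and 24.3 times in KO, and these ratios overlapped. Summed FPKM of the 5 type II members was 4.98 to 6.54 times that of the 5 type I members in NT and 9.31 to 12.6 times in KO. Over all 51 keratin genes measured the 2 types stood near parity, at type II to type I ratios of 0.928 to 1.06 in NT and 0.891 to 1.13 in KO.

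The 10 keratins remained a small part of the keratin transcripts. They held 4.18%, 2.05% and 1.95% of the summed keratin FPKM in NT replicates 1, 2 and 3, and 10.7%, 6.73% and 5.61% in KO replicates 1, 2 and 3. The groups did not overlap, and NT replicate 1 and KO replicate 1 were the highest of their groups. KRT8, KRT18 and KRT19 together held 93.0% to 97.3% in NT and 77.2% to 89.2% in KO. The remainder lay with other keratins, of which the hair keratins KRT34 and KRT81 were the most abundant in KO. Their means were 19.4 and 14.6 FPKM in NT and 252 and 167 FPKM in KO, so the share that KRT8, KRT18 and KRT19 lost did not go to the 10 alone. Within the 10, KRT4 alone went from 22.8% to 35.7% of their sum in NT to 51.2% to 55.2% in KO.

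**Figure D3:**
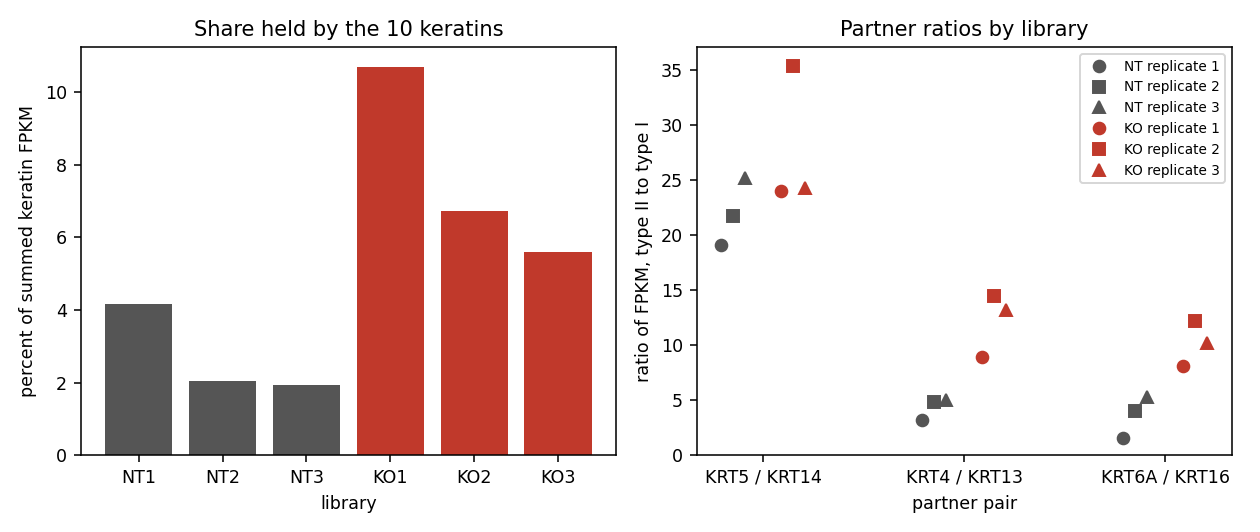
Left, percent of the summed FPKM of 51 keratin genes held by the 10 keratins in each library (bars, NT grey, KO red); right, ratio of FPKM of a type II keratin to its type I partner in each library. The bars run from 1.95% to 4.18% in NT and from 5.61% to 10.7% in KO, and the ratios separate the groups for KRT4 to KRT13 and KRT6A to KRT16 but not for KRT5 to KRT14.

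Other keratins of stratified epithelium were mostly too low to test. Of 13 such genes, 10 were below 1 FPKM in all 6 libraries, and 1 was tested, for which at least 1 FPKM in at least 3 libraries was required. That gene was KRT3, the type II chain of the cornea. It stood at 0.348, 0.204 and 0.428 FPKM in NT and at 1.40, 2.82 and 3.26 FPKM in KO. It rose (log2 difference 1.36 ± 0.22, limma, adjusted p = 0.00301), where 6.26% of all genes tested rose and 5.93% fell. KRT3 reached the filter only through its KO libraries, so its call says nothing of the list as a whole. KRT6B, the near copy of KRT6A, was at 0.205, 0.442 and 0.477 FPKM in NT and at 0.980, 2.16 and 1.43 FPKM in KO, higher without overlap. KRT17, the type I chain neighbouring KRT16 on chromosome 17 and like it a wound keratin, went the other way: it was at 2.38, 0.841 and 0.682 FPKM in NT and at 0.345, 0.089 and 0.320 FPKM in KO. KRT6B and KRT17 were below the filter, are not tested, and are named after their values were seen. The ratio of KRT16 to KRT17 was 1.01, 1.5 and 1.22 in NT and 11.5, 42.1 and 15.8 in KO.

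Of the simple epithelial keratins, 2 of 5 tested rose, 0 fell and 3 did not pass (limma), with a median log2 difference of 0.50. Over all genes tested, 6.26% rose and 5.93% fell. KRT19 rose by 1.43 (adjusted p = 0.00105), from 263, 258 and 257 FPKM in NT to 651, 589 and 891 FPKM in KO. KRT20, a keratin of gut surface cells, was at 7.0, 1.37 and 1.21 FPKM in NT and at 28.3, 12.7 and 10.5 FPKM in KO (log2 difference 2.26, adjusted p = 0.0168), but it did not pass without NT replicate 2, NT replicate 3 or KO replicate 2 (adjusted p up to 0.109). With a replicate block, 3 rose and 0 fell, where 13.5% and 11.8% of all genes did.

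Transcription factors of squamous epithelium did not move one way. Of 15 tested, 2 rose, 4 fell and 9 did not pass (limma), where 6.26% of all genes tested rose and 5.93% fell. The median log2 difference was -0.13. Blocked by replicate number, 3 rose and 7 fell, where 13.5% and 11.8% of all genes did. TP63, the factor that defines basal keratinocytes, was listed at 0.057 and 0.076 FPKM in NT replicates 2 and 3 and at 0 in NT replicate 1 and in all 3 KO libraries. KLF4, a factor of differentiating epithelium, was at 26.0, 23.2 and 23.6 FPKM in NT and at 74.6, 70.0 and 70.7 FPKM in KO, and it rose (log2 difference 1.52 ± 0.15, adjusted p = 0.000193). GRHL2, a grainyhead factor of epithelial junctions, was at 2.60, 3.11 and 3.18 FPKM in NT and at 0.578, 0.385 and 0.380 FPKM in KO, and fell by 1.45 (adjusted p = 0.000287). OVOL1 and TRIM29 fell by 1.35 and 1.23 (adjusted p = 0.00125 and 0.00343). GRHL2 and OVOL1 reached the filter only through NT libraries. The other calls, named after their values were seen to complete the counts, were SOX2, which rose by 0.74 (adjusted p = 0.0214), and the epithelial ETS factor ELF3, which fell by 1.0 (adjusted p = 0.00269). SOX2 did not pass without any single library except KO replicate 1 (adjusted p up to 0.146). The counts of genes that rose moved to 1 without NT replicate 1, 2 or 3 or KO replicate 2 or 3, and to 4 without KO replicate 1.

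Of the AP-1 subunits, which bind many keratin promoters, 2 of 10 tested rose, 0 fell and 8 did not pass (limma), with a median log2 difference of 0.56. Over all genes tested, 6.26% rose and 5.93% fell. FOSB was at 0.816, 0.896 and 1.07 FPKM in NT and at 2.65, 2.51 and 2.45 FPKM in KO, and rose by 0.88 (adjusted p = 0.00401). JUND rose by 0.67 (adjusted p = 0.0478), but did not pass without any single library except KO replicate 2 (adjusted p up to 0.166), nor in 5 other settings of filter, scaling or trend (adjusted p up to 0.0799). The number that rose was 1 without NT replicate 1, 2 or 3 or KO replicate 1, and 1 gene fell without KO replicate 1. Blocked by replicate number, the fit gave 6 that rose and 1 that fell, where 13.5% and 11.8% of all genes did.

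Genes of the junctions that anchor keratin filaments were called in both directions. Of 10 desmosome genes tested, 1 rose, 2 fell and 7 did not pass (limma), or 2 and 5 when blocked by replicate number. Of all genes tested, 12.2% passed in either direction in the main fit. In the blocked fit 13.5% of all genes rose and 11.8% fell. The median log2 difference was -0.49. DSG3, the desmosomal cadherin of basal keratinocytes, was at 12.4, 19.3 and 19.04 FPKM in NT and at 1.09, 1.36 and 0.537 FPKM in KO. It fell by 3.16 ± 0.23 on the log2 scale (adjusted p = 6e-05), opposite in direction to KRT5 and KRT14. DSG4, another desmoglein, fell by 0.96 (adjusted p = 0.0260) and PERP, a desmosome-associated protein, rose by 0.60 (adjusted p = 0.0274); each lost the call without 4 of the 6 single libraries, NT replicates 2 and 3 among them (adjusted p up to 0.105 and 0.190). PERP also lost it with TPM scaling (adjusted p = 0.0535) and quantile normalization (adjusted p = 0.0532), and no desmosome gene (0) rose there, while DSG4 lost it with no filter (adjusted p = 0.0605). Of 11 hemidesmosome and basement membrane genes tested, 1 rose, 1 fell and 9 did not pass (limma; 18.2% called), or 3 and 3 when blocked by replicate number, and the median was 0.12. Without KO replicate 1, 3 fell. ITGB4, the integrin that links to keratin filaments, was at 253, 239 and 257 FPKM in NT and at 167, 133 and 135 FPKM in KO, and fell by 0.79 (adjusted p = 0.0124), but not without NT replicate 2 or 3 (adjusted p up to 0.0811). COL17A1, the basal collagen of hemidesmosomes, was at 27.5, 27.8 and 25.5 FPKM in NT and at 27.4, 33.7 and 27.3 FPKM in KO (adjusted p = 0.696).

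Genes of the cornified envelope, the end product of epidermal differentiation, were mostly low: of 33 genes, 22 were below 1 FPKM in all 6 libraries. Of 7 tested, 2 rose, 1 fell and 4 did not pass (limma), with a median log2 difference of 0.37, where 6.26% of all genes tested rose and 5.93% fell. The plakin PPL was at 4.51, 3.04 and 2.69 FPKM in NT and at 11.4, 10.1 and 7.38 FPKM in KO, and rose by 1.27 (adjusted p = 0.00466). Its partner EVPL was at 11.9, 18.2 and 18.1 FPKM in NT and at 4.87, 6.39 and 6.55 FPKM in KO, and fell by 1.28 (adjusted p = 0.00310). ANXA1, a calcium-binding protein, rose by 0.95 (adjusted p = 0.0120), but not without NT replicate 2 or 3 (adjusted p up to 0.0633). Without either of those libraries the number that rose was 1. Another 20 genes of the list were found in at least 1 library but were too low to test. Of these, 7 stood higher in KO and 4 lower without overlap of the groups. Among all genes tested, 16.5% stood higher and 15.7% lower without overlap. The share among genes too low to test was not computed, so nothing is read from the counts. The 4 lower ones were CSTA, S100A9, TGM3 and ABCA12, with means of 1.17, 1.19, 0.394 and 0.477 FPKM in NT and 0.150, 0.0263, 0.017 and 0.0623 FPKM in KO; they are named after their values were seen. Among the higher ones, IVL, the envelope protein involucrin, also named after its values were seen, was at 0.248, 0.089 and 0.042 FPKM in NT and at 0.789, 1.15 and 1.06 FPKM in KO.

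Of the surface and secreted proteins of squamous epithelium, 6 of 13 tested rose, 1 fell and 6 did not pass (limma), with a median log2 difference of 0.36. Over all genes tested, 6.26% rose and 5.93% fell. SFN, a 14-3-3 protein known to bind keratins, was at 65.8, 93.2 and 89.5 FPKM in NT and at 249, 264 and 402 FPKM in KO, and rose by 1.85 (adjusted p = 0.000715). The kallikrein KLK10 was at 12.8, 15.3 and 16.4 FPKM in NT and at 43.1, 63.2 and 82.2 FPKM in KO, and rose by 1.97 (adjusted p = 0.000606). KLK5, a kallikrein of epidermal shedding, and EMP1, an epithelial membrane protein, rose by 1.89 and 1.90 (adjusted p = 0.000689 and 0.00396). These 4 genes passed without any single library. The other calls, named after their values were seen, were KLK6 and NGFR, which rose by 1.43 and 0.83 (adjusted p = 0.000275 and 0.0284), and the connexin GJB6, which fell by 1.34 (adjusted p = 0.000262). NGFR did not pass without NT replicate 1, 2 or 3 or KO replicate 2 (adjusted p up to 0.0856). KLK5, KLK6 and NGFR reached the filter only through KO libraries, and GJB6 only through NT libraries, so these counts depend on the filter. Blocked by replicate number, 6 rose and 2 fell, where 13.5% and 11.8% of all genes did. Without KO replicate 1 the number that fell was also 2.

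Markers of colon epithelium other than keratins, given for comparison, went from a summed 456 to 509 FPKM in NT to 215 to 327 FPKM in KO. Of 12 tested, 0 rose, 9 fell and 3 did not pass (limma), where 6.26% of all genes tested rose and 5.93% fell. Among the 9, CDX1 and VIL1, named after their values were seen, reached the filter only through NT libraries. Their calls depend on the filter. The colon keratins are counted above and went otherwise: KRT19 and KRT20 rose, and KRT8 and KRT18 did not pass. GPA33, LGALS4, CDH17 and HNF4A fell by 4.31, 3.75, 3.29 and 2.26 on the log2 scale. EPCAM and CDH1, which mark epithelium in general, overlapped between the groups (adjusted p = 0.426 and 0.629), and so did CDX2, the intestinal factor (adjusted p = 0.587).

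**Figure D4:**
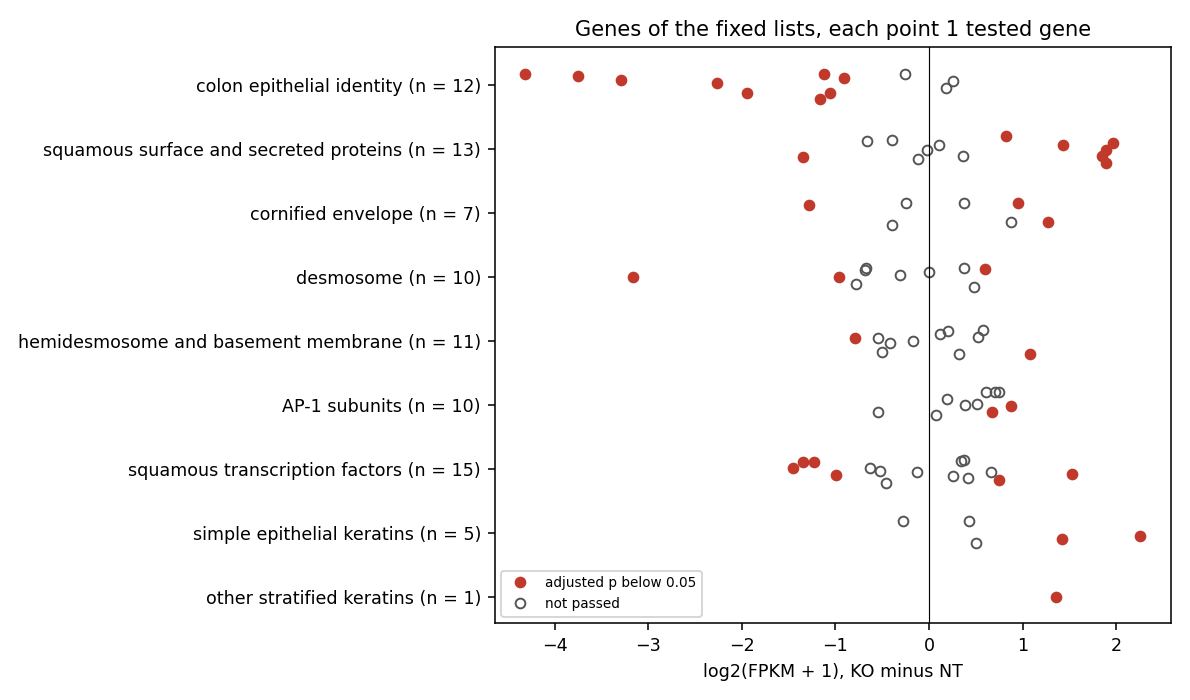
Difference between KO and NT on the log2(FPKM + 1) scale for each tested gene of 9 lists, filled in red where the adjusted p from limma was below 0.05 and open where it was not. Calls lie on both sides of 0 in the lists of transcription factors, desmosome, hemidesmosome and cornified envelope genes. All 9 calls among the colon markers, a list without keratins, lie below 0.

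The keratin clusters hold no other tested protein-coding genes besides those of keratin-associated proteins, so the 10 nearest tested genes on each side were taken. Beside the type II cluster on chromosome 12, 4 of 20 rose, 2 fell and 14 did not pass (limma), with a median log2 difference of -0.05. Beside the type I cluster on chromosome 17, 2 of 20 rose, 1 fell and 17 did not pass, with a median of 0.22. Over all genes tested, 6.26% rose and 5.93% fell. EIF1, 64043 bases past the type I cluster, was at a mean of 558 FPKM in NT and 565 FPKM in KO (adjusted p = 0.974), and EIF4B, 53376 bases past the type II cluster, at 336 and 248 FPKM (adjusted p = 0.314); both are translation factors and are named as the nearest genes on that side. IGFBP6, whose product binds insulin-like growth factors and which lies 144530 bases past the type II cluster, rose by 3.11 (adjusted p = 0.000162). The other calls beside the type II cluster, named after their values were seen, were NR4A1, GALNT6 and RARG, which rose by 1.16, 0.97 and 0.77, and ITGB7 and SMAGP, which fell by 1.17 and 0.65. Beside the type I cluster TNS4 and GJD3 rose by 1.16 and 1.03, and FKBP10 fell by 1.32. Of these, 4 lost the call when single libraries were left out: RARG without NT replicate 2 or 3 or KO replicate 2 or 3, SMAGP without NT replicate 1, 2 or 3 or KO replicate 2, TNS4 without NT replicate 1 or KO replicate 2 or 3, and GJD3 without NT replicate 1 or 3 or KO replicate 2 or 3 (adjusted p up to 0.138, 0.163, 0.145 and 0.0841). ITGB7 and FKBP10 reached the filter only through NT libraries, so their calls depend on it.

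IGFBP6 was also among the 5 genes outside the 10 whose profile over the 6 libraries was nearest to that of KRT4, the most abundant of them, by the root mean square difference of centred log2(FPKM + 1) values. IGFBP6, the milk protein gene CSN3, the chemokine receptor gene CXCR4 and NPC2, a cholesterol carrier of lysosomes, had root mean square differences of 0.18, 0.18, 0.20 and 0.21. In IGFBP6, at 18.01, 8.61 and 8.67 FPKM in NT and at 102, 81.4 and 134 FPKM in KO, NT replicate 1 was the highest of its group, as for KRT4.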

How the data were processed

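Poly-A RNA of LoVo cells was sequenced from 3 non-target and 3 SHARPIN knockout libraries, grouped by their titles. The deposited values are FPKM per gene symbol; per the submitters' processing notes, the authors trimmed the reads, used TopHat2 2.1.1 for alignment to hg19 (UCSC genes) and STAR 2.7.10b for the FPKM. Whether counting used strand was not stated. A symbol missing from a library was set to 0. FPKM are relative to each library's total, whose sum ran from 416852 to 522919 (KO replicate 3).

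The 10 keratins, the gene lists and the rules were chosen with earlier results of these data known. Named besides the 10 are SHARPIN, per list up to 4 genes that passed with the largest change (or else the smallest p), the 5 genes nearest to KRT4, and others where stated or given as markers. Some genes that these rules name are not reported here. The 13092 genes that reached 1 FPKM in 3 or more libraries were fitted on log2(FPKM + 1) with limma 3.58.1 in R 4.3.3 (trend, robust), two-sided, with Benjamini-Hochberg adjustment over all of them and a threshold of 0.05. A gene below 1 FPKM in every library of 1 group entered only through the other group, so its call depends on the filter. Such differences understate the change of low genes. On simulated data from the same gene means, with 200 of 13092 genes changed, limma recovered 83.4% of 2-fold and 99.6% of 4-fold changes, and 5.85% of calls were false. The simulated noise was independent between genes and libraries, and the changes were steps on the log2(FPKM + 1) scale. In the data, 1597 genes were called and libraries deviated together across genes, so these rates may not hold there. Depth was estimated from single-transcript genes, as the step on which low FPKM times length gather (64 to 94 values per library gathered there within 2%, and a median of 13 to 14 did so for other step sizes); most values gave no whole fragments, so no count test was run.

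Same-numbered libraries deviated together (correlations across genes of 0.547, 0.309 and 0.331 for replicates 1, 2 and 3), so a fit blocked by these numbers was run as an alternative. This rests on replicate 1, since NT replicate 2 correlated with KO replicate 3 at 0.320. The blocked fit gave adjusted p such as 5.71e-115 for GPA33 (limma with replicate block) from 3 libraries a group. Its higher counts are therefore not firmer calls. The unblocked fit is the main one. Alternatives were pseudocounts, filters, scalings, limma settings, a replicate block, leaving out each library, and NT replicates 2 and 3 averaged.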

Additional observations from a re-analysis of the deposited data

How the results depend on the processing

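All 120 values of single keratins under 12 other settings (pseudocounts, scalings, left-out libraries, NT replicates 2 and 3 as 1 sample) kept KO above NT, and 9 moved by more than 1 SD, all of them for KRT14, KRT15, KRT16 or KRT75 with a smaller pseudocount or TPM scaling. Their median difference of 1.5 became 2.17 and 1.79 with pseudocounts of 0.1 and 0.5 and 1.77 with TPM scaling, and ran from 1.35 to 1.68 without any single library. The KO to NT ratio of the share of keratin FPKM they held was 2.82, and 2.26 to 3.84 without any single library. The sign of the SHARPIN difference turned without KO replicate 1 (0.17, adjusted p = 0.578; lowest -0.41, without KO replicate 3).

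Over all genes, 820 rose and 777 fell. This became 519 and 346 with a mean of at least 5 FPKM, 3202 and 2067 with array weights, and 1767 and 1542 with a replicate block; 416 rose with NT replicates 2 and 3 as 1 sample. Without single libraries, 411 to 1041 rose and 500 to 929 fell, with the low counts without NT replicate 2 (420 rose), NT replicate 3 (411) and KO replicate 2 (505).

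The list counts are small and moved with the settings. The number that rose and the number that fell ran, over all 17 settings, from 0 to 2 and 0 to 1 for other stratified keratins, 1 to 4 and 0 to 1 for simple keratins, 1 to 5 and 1 to 7 for transcription factors, 0 to 6 and 0 to 1 for AP-1 subunits, 1 to 4 and 0 to 5 for the hemidesmosome, 0 to 2 and 1 to 5 for the desmosome, 1 to 5 and 1 to 3 for the cornified envelope, 3 to 7 and 0 to 4 for squamous surface and secreted proteins, and 0 to 2 and 6 to 10 for colon markers. Without single libraries the same pairs were 1 to 1 and 0 to 0, 1 to 2 and 0 to 0, 1 to 4 and 4 to 5, 1 to 2 and 0 to 1, 1 to 1 and 0 to 3, 0 to 2 and 1 to 2, 1 to 3 and 1 to 1, 5 to 6 and 1 to 2, and 0 to 0 and 6 to 9. Array weights and the replicate block gave the highest counts in most lists; the cause was not tested. The replicate block moved no other list count by over 1.5 times than those given beside the results. At the estimated depth, KRT14 and KRT75 in NT rest on 16 to 52 fragments a library.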
